A study of Mus musculus with 10 samples.

Results

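The genes described here are 10 brakes on the cell division cycle. They are Cdkn1a, Cdkn1b and Cdkn1c (the Cip/Kip inhibitors p21, p27 and p57), Cdkn2a, Cdkn2b, Cdkn2c and Cdkn2d (the INK4 inhibitors, with p19Arf as a second product of Cdkn2a), Gas1, Rb1 and Trp53. They were chosen by symbol, and all 10 of 10 were found among the 23358 rows of the gene count table. A total of 8 had reads in every RNA library, and Cdkn2a and Cdkn2b had none in any. MC3T3 cells, a mouse calvarial pre-osteoblast line, were differentiated in osteogenic medium that contained beta glycerol phosphate and ascorbic acid. All groups shared that medium. One arm was given vehicle and the other GSK126 at 5 µM. This compound inhibits EZH2, the enzyme of Polycomb repressive complex 2 that writes H3K27me3, a histone mark of silenced genes. GSK126 was given at the start and again 3 days later, and it was removed on day 6. RNA was sequenced from vehicle and GSK126 cells on days 3, 6 and 10 (1 library per treatment and day, 6 in all), and H3K27me3 and input DNA 24 hours after the first dose (1 library of each per treatment). All libraries came from this 1 cell line, and nothing in the labels says that they came from separate cultures.

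Passage from G1 into DNA synthesis is driven by cyclin D with CDK4 or CDK6 and by cyclin E with CDK2, which phosphorylate the retinoblastoma protein Rb1 and release E2F factors. INK4 proteins bind CDK4 and CDK6, while Cip/Kip proteins bind cyclin and CDK complexes more broadly. The p53 protein, encoded by Trp53, turns on Cdkn1a, and p19Arf protects p53 by binding its ligase Mdm2. Gas1 is a membrane protein first described as a gene of arrested fibroblasts, and it is also a hedgehog co-receptor. Cdkn2a is a textbook target of Polycomb repression in dividing cells, and Cdkn1c is an imprinted gene that is expressed from the maternal allele.

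The promoters of the genes on which the results turn are shown first, as the 250 bases before the start site in RefSeq (GRCm38.p6, the build called mm10), 5′ to 3′ in the direction of the gene. Of the 10 genes, 8 were matched to 11 promoters. Cdkn1c and Rb1 were not matched. Gas1 is shown as the gene that passed the GSK126 test, Cdkn2c and Cdkn2d as inhibitor genes whose lowest library was that of GSK126 on day 6, and the outer start of Cdkn2a, from which p19Arf is made, as a gene without reads. Capitals mark letters of 3 promoter motifs on either strand: E2F (TTTCCCGC, TTTCGCGC, TTTGCCGC or TTTGGCGC), CCAAT and the GC box GGGCGG.
Gas1, chr13:60177536-60177785, minus strand: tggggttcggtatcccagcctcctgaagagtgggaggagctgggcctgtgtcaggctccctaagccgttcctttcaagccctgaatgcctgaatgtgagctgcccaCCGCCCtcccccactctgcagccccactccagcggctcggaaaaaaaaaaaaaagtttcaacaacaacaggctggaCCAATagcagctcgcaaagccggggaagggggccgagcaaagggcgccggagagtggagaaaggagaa
Cdkn2c, chr4:109666757-109667006, minus strand: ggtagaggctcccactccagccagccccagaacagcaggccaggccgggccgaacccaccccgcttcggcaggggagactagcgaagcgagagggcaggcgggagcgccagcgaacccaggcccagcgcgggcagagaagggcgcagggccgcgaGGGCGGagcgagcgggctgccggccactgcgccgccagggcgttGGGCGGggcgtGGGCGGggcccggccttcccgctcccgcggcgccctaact
Cdkn2d, chr9:21291210-21291459, minus strand: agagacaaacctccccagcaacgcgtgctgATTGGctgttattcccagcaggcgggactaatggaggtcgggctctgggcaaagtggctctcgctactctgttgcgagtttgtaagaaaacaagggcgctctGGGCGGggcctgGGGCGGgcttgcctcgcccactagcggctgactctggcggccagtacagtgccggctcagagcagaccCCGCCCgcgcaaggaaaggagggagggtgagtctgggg
Cdkn2a, chr4:89294620-89294869, minus strand: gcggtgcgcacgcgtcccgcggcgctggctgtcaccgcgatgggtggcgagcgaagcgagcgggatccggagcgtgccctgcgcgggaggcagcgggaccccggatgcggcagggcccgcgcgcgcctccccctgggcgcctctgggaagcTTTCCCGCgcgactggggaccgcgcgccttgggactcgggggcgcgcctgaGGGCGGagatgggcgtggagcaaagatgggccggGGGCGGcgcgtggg
E2F letters were found in 1.86% of 32851 promoters of the same length, and among the 11 promoters of these genes only in the outer one of Cdkn2a, from 99 to 92 bases before the start. The Cdkn2a window was also the richest in CpG of the 11, with 40 CpG against a median of 6 over all promoters. The Cdkn2c window held 29 CpG and 3 GC boxes. A second Cdkn2c start, the one at which the count table's gene model ends, had 6 CpG and none of these letters. The Cdkn2d window held 16 CpG, 3 GC boxes and 1 CCAAT, and the Gas1 window 10 CpG, 1 GC box and 1 CCAAT. GC boxes stood in 32.7% and CCAAT in 33.8% of all promoters. TTTGAA, the core of the CHR element of late cell cycle genes, stood in 16.0% of all promoters and, among the 11, in that of Cdkn2b. Matches were counted on both strands, overlaps included, and they describe letters, not binding.

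Libraries held 97291878 to 111537936 counts. Every count was even, so values called fragments, such as those of Cdkn1c, are counts divided by 2. Values called counts are given as deposited, also where they are low. The tests used the counts as deposited. With all counts divided by 2, GSK126 called 165 genes in place of 184, and Cdkn1c no longer passed the filter on low counts. The floor that a count of 0 allows (3 fragments) was 0.0538 to 0.0617 CPM, counts scaled to the size of the library. Osteoblast markers were above 0 for 8 of 8 genes, with a summed level of 55708 to 77177 CPM, and those of adipocytes, endothelium, blood and muscle summed to at most 5.81 CPM, with Myod1, Kdr and Hbb-b1 at 0. Neuron markers summed to 5.85 to 110 CPM. Per kilobase of transcript, the vehicle levels ran from Cdkn1a (105.5 to 152 CPM per kb) through Trp53 (48.9 to 67.8), Cdkn1b (45.1 to 48.8), Cdkn2c (42.2 to 50.2), Gas1 (25.1 to 36.7), Cdkn2d (13.0 to 19.3) and Rb1 (4.75 to 5.30) to Cdkn1c (0.0178 to 0.0301). The ranges of Cdkn1b and Cdkn2c overlapped, and Cdkn2c reached into the range of Trp53. All other neighbours in that order were apart.

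GSK126 was compared with vehicle over the 3 days in 1 fit of all genes (edgeR, day and treatment as terms, 14344 genes tested). Of the 10 genes, 8 were tested and 1 passed, Gas1, which was lower with GSK126. Over all genes tested, 1.28% were called, and 0.272% were called lower. The median log2 difference of the 8 genes was -0.04, against 0.00 over all genes. The 8 genes had fitted differences on both sides of 0, with 3 above and 5 below. Cdkn1c, among those above, passed the filter on low counts through its GSK126 libraries alone. Cdkn2d (-0.02) and Trp53 (-0.05), among those below, lay close to 0.

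Gas1 (chr13:60174405-60177535) stood at 115, 96.6 and 78.7 CPM in vehicle cells on days 3, 6 and 10. With GSK126 its level was 68.3, 36.3 and 33.7 CPM. Every GSK126 library was thus below every vehicle library, and within each treatment the level was lower at each later day. The log2 ratio of GSK126 to vehicle was -0.75 on day 3, -1.41 on day 6 and -1.22 on day 10, the last after the compound had been removed. The fitted log2 difference was -1.13 (SE 0.14, edgeR adjusted p = 0.0338), a 2.19-fold lower level. These are bulk libraries, in which fewer cells with the transcript and less of it per cell cannot be told apart. The call was lost without day 6 (log2 difference -0.99, edgeR adjusted p = 0.113) and without day 10 (-1.08, 0.165), and it held without day 3 (-1.31, 0.0267). Over 9 alternatives it ranged from 3.76e-10 to 0.490.

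**Figure D1:**
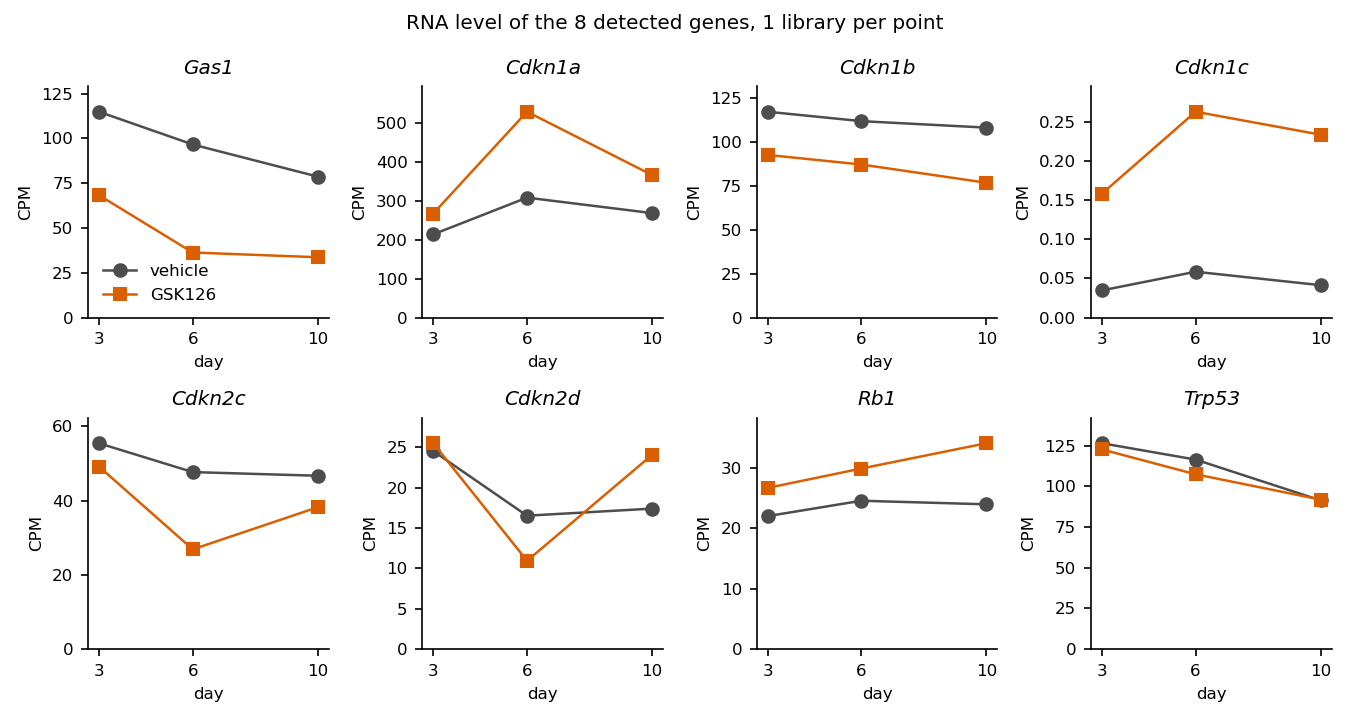
CPM (vertical axis, from 0, a scale of its own in each panel) against day for the 8 detected genes, with 1 point per library, vehicle in grey and GSK126 in orange. Gas1 and Cdkn1b lie lower with GSK126 on all 3 days and Rb1 and Cdkn1c higher, while the lines of Cdkn2d cross between day 6 and day 10.

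Hedgehog reception genes were read beside Gas1 because the Gas1 protein works with them. Of 7 such genes 5 were tested, and 0 passed the GSK126 test in edgeR (2 at an unadjusted p below 0.05, 2 in DESeq2, 0 in limma-voom). Ptch1, the hedgehog receptor and itself a target of the pathway, stood at 18.1, 17.6 and 17.2 CPM in vehicle cells on days 3, 6 and 10 and at 21.6, 30.8 and 45.4 CPM with GSK126 (log2 difference 0.82, SE 0.22, edgeR adjusted p = 0.131). The log2 difference of Cdon, a co-receptor like Gas1, was -0.31 (SE 0.08, edgeR adjusted p = 0.121). For the other tested genes it was 0.31 for Gli1 (SE 0.32, edgeR adjusted p = 0.663), 0.33 for Boc (SE 0.19, 0.407) and -0.16 for Smo (SE 0.10, 0.443). Of the 5 log2 ratios to vehicle, 1 was above 0 on day 3, 3 on day 6 and 3 on day 10. Hhip, a decoy receptor, had 0 counts in every vehicle library and 12, 14 and 4 counts in the GSK126 libraries, too few to be tested.

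Cdkn1a (chr17:29090986-29100722) was the most abundant of the genes. Its level was 214, 308 and 268 CPM in vehicle cells on days 3, 6 and 10, and 267, 529 and 366 CPM with GSK126. GSK126 was above vehicle on each day, with log2 ratios of 0.32, 0.78 and 0.45, but the GSK126 level of day 3 lay below the vehicle levels of days 6 and 10. The log2 difference was 0.52 (SE 0.11) and did not pass (edgeR adjusted p = 0.0877). DESeq2 called it (adjusted p = 0.00246), and over 9 alternatives the adjusted p ran up to 0.757.

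Cdkn1b (chr6:134920401-134925525) stood at 117, 112 and 108 CPM in vehicle cells and at 92.8, 87.3 and 76.9 CPM with GSK126. The groups did not overlap, and the log2 ratios of -0.34, -0.36 and -0.49 were close to each other on the 3 days. The log2 difference of -0.40 (SE 0.07) nevertheless missed the threshold in edgeR (adjusted p = 0.0658), with 2 residual degrees of freedom behind it, and passed in DESeq2 (adjusted p = 0.00169, up to 0.496 over 9 alternatives). The p27 protein is removed by the SCF-Skp2 ligase. Of the 7 genes listed for p27 turnover, which are SCF-Skp2 genes and Rnf123, 0 passed the GSK126 test in edgeR, DESeq2 or limma-voom, or at an unadjusted edgeR p below 0.05. Skp2 was at 38.5, 27.4 and 30.9 CPM in vehicle cells and at 37.1, 20.8 and 52.5 CPM with GSK126, so that it lay lower on day 6 and higher on day 10.

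Rb1 (chr14:73195502-73325791) stood at 22.0, 24.5 and 23.9 CPM in vehicle cells and at 26.6, 29.8 and 34.0 CPM with GSK126. All 3 GSK126 values were above all 3 vehicle values. The log2 difference was 0.36 (SE 0.09, edgeR adjusted p = 0.115), with DESeq2 calling it at an adjusted p of 0.0356 (up to 0.595 over 9 alternatives). The span of Rb1 also holds Lpar6, with 710, 464 and 418 counts in vehicle libraries on days 3, 6 and 10. With GSK126 Lpar6 had 670, 400 and 306 counts. The libraries do not mark strand, so reads shared by both genes cannot be told apart. Over all genes tested, the 3 GSK126 and the 3 vehicle values did not overlap in 12.2%. Among the 7 genes with at least 541 fragments in each library this was so for 3: Gas1 and Cdkn1b lower, and Rb1 higher. Of the 17 pocket proteins, E2F factors and DREAM partners, which work with Rb1, 0 passed the GSK126 test in edgeR, DESeq2 or limma-voom, and 1 had an unadjusted p below 0.05.

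Trp53 (chr11:69580359-69591873) differed little between treatments. It was at 127, 117 and 91.4 CPM in vehicle cells and at 123, 107 and 91.9 CPM with GSK126. The log2 difference was -0.05 (SE 0.07, edgeR adjusted p = 0.749). Of the 8 p53 regulators and the 19 tested p53 target genes, 0 passed the GSK126 test in edgeR, DESeq2 or limma-voom, and 0 and 1 had an unadjusted p below 0.05. The medians of these lists were 0.03 and -0.09 on the log2 scale.

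**Figure D2:**
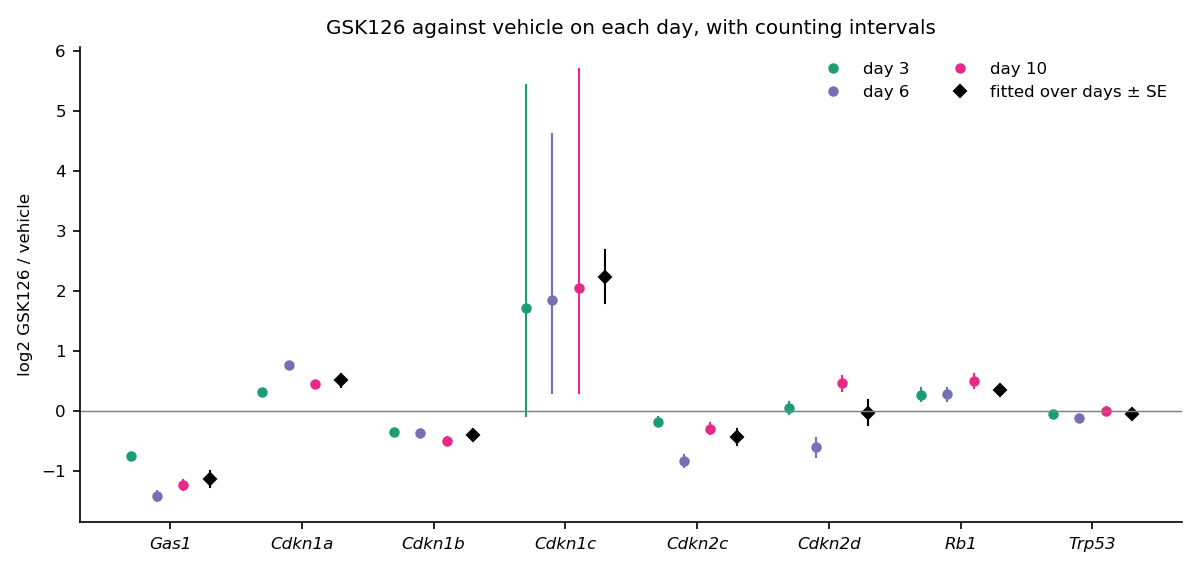
Log2 ratio of GSK126 to vehicle for the 8 detected genes (vertical axis), with coloured points for each day and lines for the exact binomial 95% interval of the fragments, which covers counting error only. Black diamonds give the difference fitted over the 3 days with its SE. Gas1 lies lowest, between -1.41 and -0.75, the intervals of Cdkn1c span several log2 units, and Cdkn2d lies on both sides of 0.

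Cdkn2c (chr4:109660876-109665372) encodes p18 and Cdkn2d (chr9:21288464-21291209) encodes p19Ink4d, the pair of INK4 genes that had reads. Cdkn2c stood at 55.5, 47.7 and 46.7 CPM in vehicle cells and at 49.2, 26.9 and 38.2 CPM with GSK126. The GSK126 library of day 6 was the lowest of the 6, and the GSK126 library of day 3 lay above 2 of the vehicle libraries. The log2 ratios were -0.17, -0.83 and -0.29, and the fitted difference of -0.43 (SE 0.14, edgeR adjusted p = 0.183) did not pass.

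Cdkn2d stood at 24.5, 16.5 and 17.4 CPM in vehicle cells and at 25.5, 10.9 and 24.0 CPM with GSK126. Its log2 ratio was 0.06 on day 3, -0.59 on day 6 and 0.47 on day 10. The counting intervals were -0.75 to -0.44 on day 6 and 0.34 to 0.60 on day 10, so the sign differed beyond counting error, but each day has 1 library per treatment. The difference fitted over days was -0.02 (SE 0.20, edgeR adjusted p = 0.972).

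A list of 24 proliferation genes moved in the same libraries. Their summed level on day 3 was 3290 CPM with GSK126 and 3208 CPM with vehicle. On day 6 it was 1149 against 1925 CPM, with 24 of 24 genes lower and a median log2 ratio of -0.79, and on day 10 it was 3683 against 2214 CPM, with 24 of 24 higher and a median of 0.77. Over all tested genes the medians on those days were 0.00 and -0.01. Over the 3 days 0 of the 24 passed the GSK126 test in edgeR, DESeq2 or limma-voom, or at an unadjusted edgeR p below 0.05, with a median log2 difference of 0.00. In that test a difference that changes sign between days counts as spread. The part of the proliferation difference in the values of Cdkn2c, Cdkn2d, Skp2 and Cdkn1a was not tested. The term for treatment on day 10 against the earlier days, read for this list, had a median of 1.22 with 24 of 24 above 0, of which 22 had an unadjusted p below 0.05, 0 passed in edgeR or limma-voom and 1 passed in DESeq2. Of the 8 detected inhibitor and arrest genes, the ratio had opposite signs on days 6 and 10 for Cdkn2d and Trp53 (-0.12 and 0.01) and the same sign for the other 6.

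**Figure D3:**
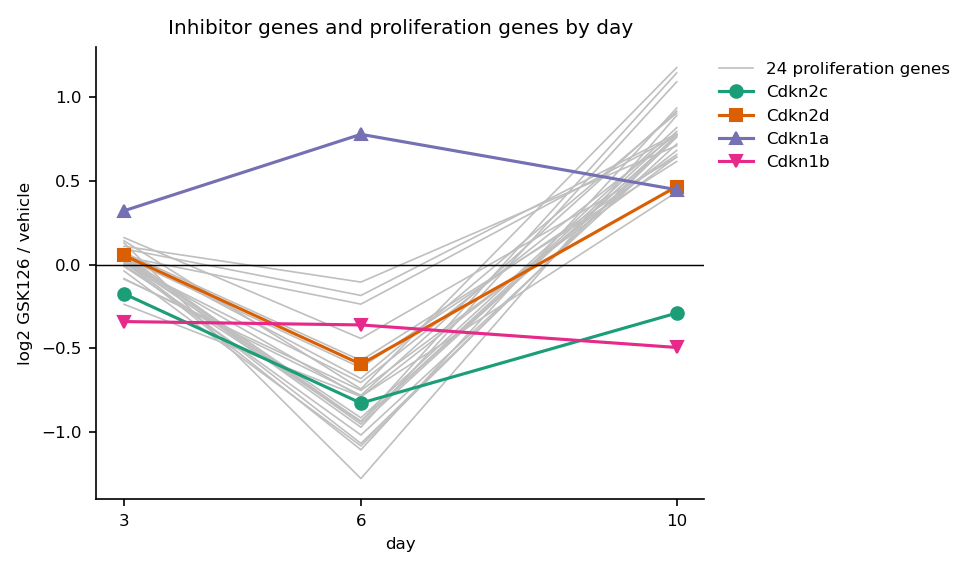
Log2 ratio of GSK126 to vehicle (vertical axis) against day for 4 inhibitor genes in colour and 24 proliferation genes in grey, from 1 library per treatment and day. The proliferation genes lie below 0 on day 6 and above 0 on day 10, Cdkn2d follows that order with -0.59 and 0.47, and Cdkn1b stays between -0.49 and -0.34.

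Whether the GSK126 difference on day 10, after removal, departed from that of the earlier days was asked with a term for treatment on day 10. It called 0 of 14344 genes in edgeR (0%), with 1006 genes at an unadjusted p below 0.05. DESeq2 called 22, none of them among the 10 genes, and limma-voom called 0. Of the 10 genes, 0 had an unadjusted p below 0.05. The term was 0.73 for Cdkn2d (SE 0.31, edgeR adjusted p = 0.719), 0.21 for Cdkn2c and -0.14 for Gas1 on the log2 scale. The term has 1 residual degree of freedom, and removal of the compound and time in culture cannot be told apart in it.

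Cdkn1c (chr7:143458339-143461050), the gene of p57, was close to silent. Vehicle libraries held 2, 3 and 2 fragments on days 3, 6 and 10, at or under the floor of 3, and GSK126 libraries held 9, 13 and 11. Each GSK126 library was above each vehicle library. The ratio of normalized levels was 4.56 on day 3 (95% exact binomial interval 0.944 to 43.4), 4.49 on day 6 (1.23 to 24.6) and 5.65 on day 10 (1.23 to 52.4), and 4.83 over the 33 and 7 summed fragments (2.10 to 12.9). The interval of day 3 includes no change. The gene passed the filter on low counts through its GSK126 libraries alone, so its fitted difference, 2.25 on the log2 scale (SE 0.44, edgeR adjusted p = 0.0766) is given as a description. Its level with GSK126, 0.0813 to 0.135 CPM per kb, remained far below the other detected genes.

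Cdkn1c was the one gene of the 10 with an H3K27me3 island, a stretch of enriched reads, within 5 kb in vehicle cells. That island (chr7:143452601-143457200) held 42 ChIP and 23 input reads, with the authors' fold of 3.07 and adjusted p of 5.32e-10, and it ended 1.14 kb from the gene. Over all genes 25.9% had such an island in vehicle cells and 22.0% in GSK126 cells. A 64.2-kb window over Cdkn1c and Phlda2, an imprinted growth regulator next door, held 6 vehicle islands with folds of 1.97 to 11.3, the highest at Phlda2. The GSK126 list held 0 islands in that window, and its gap reached from chr7:143238601 to chr7:143871000 (632 kb). Islands were also fewer with GSK126 on the whole chromosome, at 438 against 895. Each list comes from 1 ChIP library, so a difference between the lists has no replicate check.

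The imprinted neighbours of Cdkn1c were listed too. Phlda2 had 0 counts in every library, Ascl2 0 to 2, Kcnq1 0 to 4 and Slc22a18 0 to 16. Slc22a18, an organic cation transporter gene, had 0, 4 and 4 counts in vehicle libraries on days 3, 6 and 10 and 16, 16 and 6 with GSK126. Trpm5, a cation channel gene, had 8, 12 and 0 counts in vehicle libraries and 28, 30 and 26 with GSK126 (log2 difference 2.24, SE 0.76, edgeR adjusted p = 0.199). Both were thus above vehicle on each day, at few counts. Trpm5 passed the filter on low counts through its GSK126 libraries, so its fitted difference is given as a description. H19, a noncoding RNA, had 0.866, 4.35 and 15.4 CPM in vehicle cells and 1.95, 26.8 and 36.7 CPM with GSK126 (log2 difference 1.71, SE 0.31, edgeR adjusted p = 0.0694). For Igf2, the growth factor gene beside it, the log2 difference was 0.97 (SE 0.29, edgeR adjusted p = 0.162). Of the 8 tested neighbours 0 passed in edgeR (5 at an unadjusted p below 0.05, 2 in DESeq2, 0 in limma-voom), and their median log2 difference was 0.46. Trpm5 is among the 8 and among the 5. H19 and Igf2 are among the 8 too but lie far from Cdkn1c (chr7:143458339). The GSK126 island near H19 ended at chr7:142587000. Kcnq1ot1, the noncoding RNA of the Cdkn1c domain, was at 0.05 (SE 0.12, edgeR adjusted p = 0.881). Tspan32 (0.79, edgeR adjusted p = 0.227), Cd81 (-0.23, 0.225), Tssc4 (0.12, 0.533) and Nap1l4 (0.01, 0.968) did not pass either. Kcnq1ot1 held 2 islands in each list, with folds of 2.99 and 4.65 in vehicle and 2.68 and 2.07 in GSK126 cells. Trpm5 and H19 had an island within 5 kb in the GSK126 list and none in the vehicle list, with folds of 4.07 and 2.39. For Trpm5 this rests on the 5-kb limit. Its GSK126 island lay at chr7:143096201-143100800, and a vehicle island (fold 2.83) lay close by, beyond that limit, at chr7:143102401-143107600. Of the 12 neighbours, 4 had an island in each list.

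**Figure D4:**
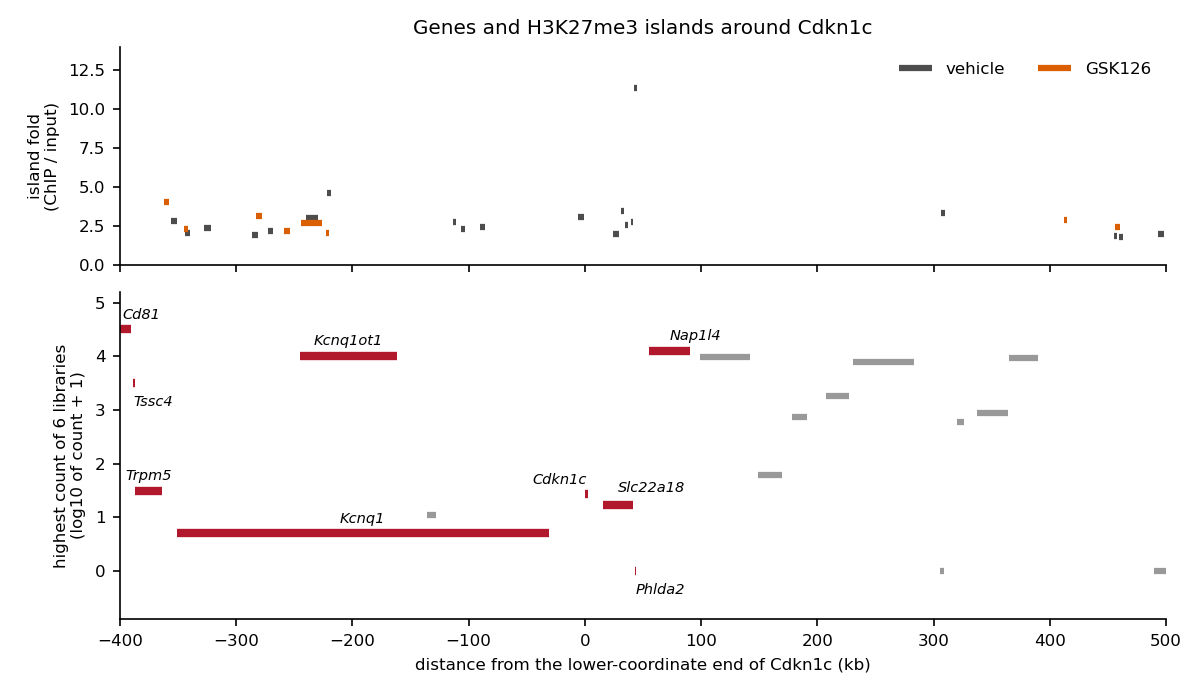
Islands (upper panel, the authors' fold of ChIP over input, vehicle grey and GSK126 orange) and genes (lower panel, log10 of the highest count of 6 libraries plus 1) against distance from Cdkn1c in kb. Vehicle islands lie beside Cdkn1c and up to Phlda2, where the fold is 11.3, and the GSK126 list has none there.

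No island of either list overlapped any of the 10 genes. Gas1 was 297 kb from the nearest vehicle island and 1609 kb from the nearest GSK126 island. The nearest vehicle islands were 8.08 kb from Cdkn1a, 10.5 kb from Trp53, 39.9 kb from Cdkn2c, 71.7 kb from Cdkn1b, 122 kb from Rb1 and 236 kb from Cdkn2d. In GSK126 cells 1 gene had an island within 5 kb, Cdkn1a, with 43 ChIP and 40 input reads, a fold of 1.79 and an adjusted p of 0.000187 (chr17:29103801-29105400), beyond the end of the gene. Island lists differed in extent: 34498 islands over 148 Mb in vehicle cells (median fold 2.48) and 24947 over 167 Mb with GSK126 (median fold 2.04). Chromosomes 13 and 14, which carry Gas1 and Rb1, had 566 and 365 vehicle islands, against 4155 on chromosome 6.

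Cdkn2a (chr4:89274473-89294619) and Cdkn2b (chr4:89306289-89311032) had 0 counts in all 6 libraries. A count of 0 allows up to 0.0538 to 0.0617 CPM per library. Their neighbour Mtap, a gene of adenosine and methionine salvage that most cells use, also had 0 counts in every library. These 3 genes were consecutive rows by position and covered 174 kb (chr4:89137370-89311032). On one side Gm12603 had 118 to 262 counts and Mir31 122 to 230, and on the other Dmrta1 had 4 to 10. Further out, Klhl9 had 12598 to 15638 counts and Mllt3 3102 to 5580, while Elavl2 and Ifnb1 had 0. The log2 difference with GSK126 was 0.00 for Klhl9 (SE 0.08, edgeR adjusted p = 0.993) and -0.14 for Mllt3 (SE 0.08, edgeR adjusted p = 0.426).

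The Cdkn2a and Cdkn2b genes lay in a stretch without H3K27me3 islands in both treatments. It ran from chr4:88865401 to chr4:89535200 in vehicle cells (670 kb) and from chr4:88864001 to chr4:89549800 with GSK126 (686 kb). The median gap between islands on chromosome 4 was 5.6 kb and 7.2 kb. Gaps at least as long were found 40 times among 2424 in vehicle cells and 38 times among 1970 with GSK126. The cells thus showed neither RNA nor an island at a locus known from other cells as a Polycomb target. Input reads are given only inside islands, so whether this DNA is present in the cells was not tested.

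**Figure D5:**
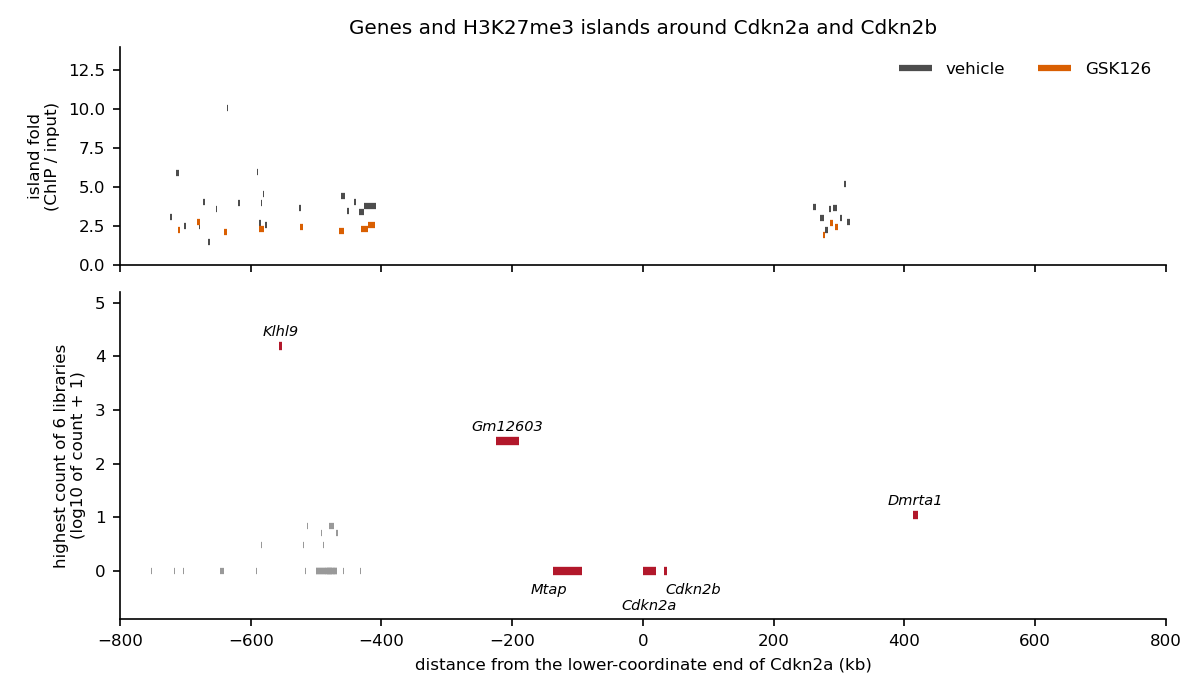
Islands (upper panel, the authors' fold of ChIP over input) and genes (lower panel, log10 of the highest count of 6 libraries plus 1) against distance from Cdkn2a in kb. Mtap, Cdkn2a and Cdkn2b lie at 0 counts in the middle of the stretch without islands, between Gm12603 and Dmrta1.

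The same fit compared days, with treatment as a term; both day contrasts share the day 3 libraries. On day 6 against day 3, 0 of the 8 tested genes passed, beside 0.753% of all genes. The log2 difference was 0.76 for Cdkn1a (SE 0.13, edgeR adjusted p = 0.0823), -0.87 for Cdkn2d (SE 0.25, 0.127) and -0.58 for Gas1 (SE 0.16, 0.126). At an unadjusted p below 0.05 there were 4, DESeq2 called these 3 and limma-voom 0. On day 10 against day 3, Gas1 and Trp53 were lower and none was higher, beside 12.5% of all genes called lower and 14.1% called higher. Gas1 fell by 0.79 on the log2 scale (SE 0.16, edgeR adjusted p = 0.0255, and 0.452 without the treatment term) and Trp53 fell by 0.44 (SE 0.08, edgeR adjusted p = 0.0208). For Trp53 the day 10 level was below the day 3 and day 6 levels in both treatments. Of the others, for which the log2 difference did not pass in edgeR, Cdkn1a was at 0.39 (SE 0.13, edgeR adjusted p = 0.0825, and 0.0467 without day 6), Rb1 at 0.24, Cdkn1b at -0.19, Cdkn2c at -0.31 and Cdkn2d at -0.27. DESeq2 called Cdkn1a too (adjusted p = 0.0456), which made 3 of the 10 genes, and limma-voom called 2.

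The p53 target genes were read beside Trp53. Of 21 p53 target genes 19 were tested (Pmaip1 and Perp were not). On day 10, 9 were lower and 0 higher, beside 12.5% and 14.1% of all genes. Their median log2 difference was -0.43, against -0.01 over all genes. Btg2, an antiproliferative gene, went from 135 and 55.9 to 30.1 CPM in vehicle cells on days 3, 6 and 10 and from 160 and 65.7 to 21.9 CPM with GSK126. It fell by 2.50 on the log2 scale (SE 0.20, edgeR adjusted p = 0.00688). Gdf15, a secreted stress cytokine, fell by 2.15 (SE 0.38, edgeR adjusted p = 0.0185), Gtse1, which restrains p53, by 1.27 (SE 0.31, 0.0375), and the death receptor Tnfrsf10b by 0.99 (SE 0.11, 0.0109). Cdkn1a, also a p53 target but not counted in that list, was at 0.39, and Sesn1, a stress gene of the list, at 0.45 (SE 0.16, edgeR adjusted p = 0.0860). Neither passed in edgeR, and DESeq2 called Cdkn1a (adjusted p = 0.0456). The ligase gene Mdm2 fell by 0.84 (SE 0.08, edgeR adjusted p = 0.0103) and its partner Mdm4 by 0.58 (SE 0.11, 0.0207). Thus 2 of 8 p53 regulators were lower and 0 higher, beside 12.5% and 14.1% of all genes.

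Among the 9 G1 cyclins and CDKs, the targets of the inhibitors, 2 were higher on day 10 and 1 lower, beside 14.1% and 12.5% of all genes. Cyclin E2 (Ccne2) was higher by 1.31 (SE 0.29, edgeR adjusted p = 0.0286), Ccnd3 by 0.31 (SE 0.09, 0.0489), and Ccnd2 fell by 0.80 (SE 0.15, 0.0214). The GSK126 test called 0 of these 9, 0 of 13 transcription regulators of inhibitor genes and 0 of 13 other growth arrest genes in edgeR, with 2, 3 and 2 at an unadjusted p below 0.05, 1, 3 and 1 in DESeq2 and 0 in limma-voom. Of the 13 transcription regulators, 6 were lower on day 10 and 1 higher. Id1, which represses inhibitor genes, fell by 1.32 (SE 0.27, edgeR adjusted p = 0.0243), Klf6 by 1.12 (SE 0.09, 0.00688), Myc by 0.69 (SE 0.10, 0.0147) and Foxo3 by 0.43 (SE 0.10, 0.0317), while Id3 was higher by 0.80 (SE 0.20, 0.0366). Of the SCF-Skp2 genes Skp1a was higher by 0.56 (SE 0.09, edgeR adjusted p = 0.0158) and Rbx1 by 0.45 (SE 0.08, 0.0178). Of the other growth arrest genes, Gadd45b was higher by 0.97 (SE 0.24, edgeR adjusted p = 0.0386) and Gadd45g fell by 0.65 (SE 0.16, 0.0393). Of the 24 proliferation genes, Cdc20 fell by 1.70 (SE 0.39, edgeR adjusted p = 0.0318), and 0 of the 17 Rb partners passed in edgeR, DESeq2 or limma-voom, or at an unadjusted edgeR p below 0.05.

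Among the hedgehog genes Cdon fell by 0.73 (SE 0.10, edgeR adjusted p = 0.0127), as Gas1 did. Of the 8 tested genes listed as neighbours of Cdkn1c, 4 were higher on day 10 and 1 lower, beside 14.1% and 12.5% of all genes. The list includes H19 and Igf2, which lie far from Cdkn1c. H19 was higher by 4.22 (SE 0.41, edgeR adjusted p = 0.0103), Igf2 by 4.02 (SE 0.39, 0.0103), Tspan32 by 2.43 (SE 0.37, 0.0148) and Tssc4 by 0.44 (SE 0.11, 0.0419), and Kcnq1ot1 fell by 0.80 (SE 0.15, 0.0196). H19 was also called higher on day 6 in edgeR (3.15, SE 0.40, adjusted p = 0.0489), while limma-voom called none of these neighbours on that day. Cdkn1c itself was at 0.47 (SE 0.53, edgeR adjusted p = 0.534). Beside Cdkn2a, Mllt3 fell by 0.49 (SE 0.10, edgeR adjusted p = 0.0268).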

How the data were processed

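RNA was measured in 6 libraries and H3K27me3 with input DNA in 4, each grouped by its title and treatment label. TopHat2 2.0.6, HTSeq 0.5.3p9, BWA 0.5.9, CASAVA 1.9, SICER 1.1 and the build mm10 are listed in the submitters' processing notes. For the annotation release, counting mode and SICER settings, values were not given in the sources used here. Gene counts were deposited as unnormalized whole numbers. The deposited RPKM values were not used for tests. The authors' island lists give ChIP and input reads, a p-value with its adjusted form, and a ratio of ChIP to input (fold). Island positions were raised by 1 to count from 1.

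The main test was edgeR 4.0.16 (R 4.3.3; quasi-likelihood test, TMM, filterByExpr on treatment, day and treatment as additive terms, Benjamini-Hochberg adjusted p below 0.05 over 14344 genes, 2 residual degrees of freedom). The biological coefficient of variation was 14.8%. Spread between these libraries, which may be technical, is all that the p-values measure. With 1 library per treatment and day, that spread includes any change of the GSK126 difference from day to day. No single day can be tested. Log2 ratios per day used TMM-scaled CPM (prior count 2), and the fold ratios given for Cdkn1c used no prior count. Exact binomial 95% intervals, also without a prior count, cover counting error only. DESeq2 1.42.0 and limma-voom (limma 3.58.1) were alternatives, with other filters, scalings, terms and days left out. The fits were tested on simulated data with the same dispersion for every gene. For the GSK126 term the simulated difference was equal on all days, so differences that change between days were not covered. Rows with a repeated name (69 of 23358) stayed in the tests. Genes outside the 10 were named by a rule: all listed neighbours of Cdkn2a, Cdkn2b and Cdkn1c, list genes past the GSK126 test, and up to 4 per direction and list past the day 10 test. Ptch1, Hhip and Skp2 were chosen after their values were seen. The members and the 11 lists were chosen with earlier results of these data known.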

Additional observations from a re-analysis of the deposited data

Results flagged for a closer look

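Cdkn2d had log2 ratios of GSK126 to vehicle of opposite sign, each with a counting interval that leaves out 0, on 2 days, -0.59 on day 6, the day of removal, and 0.47 on day 10. The change on day 10 against the earlier days was 0.73 (edgeR adjusted p = 0.719) and did not pass, and a test of day 6 against day 10 alone was not possible with 1 library per treatment and day.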

How the results depend on the processing

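Of 221 values of single genes among the 10, recomputed under alternatives, 199 kept their direction and, where they had an adjusted p, their side of the threshold. A value without an adjusted p counted as kept if it had the same sign and lay within the SE of the main value. A further 8 passed newly, 4 no longer passed and 10 moved. None of the 221 that was called changed sign. Of 60 recomputed counts of genes called or genes with an island, 39 stayed within 1.5 times and 21 did not. GSK126 against vehicle called 184 genes, with 1323 in DESeq2, 0 without a day term, 308 without day 3, 19 without day 6 and 4 without day 10. Of the 10 genes it called 1, with 4 in DESeq2 and 0 without a day term, without day 6 or without day 10. Day 6 against day 3 called 108 genes, with 1742 in DESeq2 and 1 without a treatment term, and 0 of the 10 genes, with 3 in DESeq2. Day 10 against day 3 called 2 of the 10 genes, with 3 in DESeq2. It called 3819 genes in all, with 1486 without a treatment term. Without that term 1 of the 10 was called, Trp53, and Gas1 no longer passed (edgeR adjusted p = 0.452). The term for treatment on day 10 called 0 genes, with 22 in DESeq2. The cause of these differences was not tested. Gas1 with GSK126 stayed below 0 in 9 of 9 alternatives, from -1.31 to -0.99, and passed in 6. Trp53 on day 10 passed in 7 of 7. Genes with an island within 5 kb were 1 in each treatment, and 0 in each with no flank, within 2 kb of the start site (8 genes with a known strand) or among islands with an adjusted p of at most 1e-10. No paired analysis was possible because each group has 1 library, so that no groups share 2 replicate numbers; the day term already compares GSK126 with vehicle within a day. Cdkn1c, at 2 to 13 fragments, is the gene whose values depth limits most.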
